A study of Mus musculus with 18 samples.

Results

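The genes described are 10 enzymes and subunits that write or remove DNA methylation and histone H3 lysine 27 methylation: the DNA methyltransferases Dnmt1, Dnmt3a and Dnmt3b, the methylation maintenance factor Uhrf1, the dioxygenases Tet1, Tet2 and Tet3, and the Polycomb repressive complex 2 (PRC2) subunits Ezh2, Eed and Suz12. They were chosen by name as a gene family, with earlier results of these data known, and make up 10 of the 50600 genes counted. All 10 passed the filter on low counts in every comparison. RNA-seq had been performed on FACS-purified Foxp3+ regulatory T cells (Tregs) from 18 C57BL/6 mice, to ask which transcripts depend on CD25, the alpha chain of the IL-2 receptor encoded by Il2ra. The thymic CD25 KO group held 5 mice of 3-4 weeks of age with CD25 flox alleles and the Foxp3-YFP/Cre allele, so that deletion began once Foxp3 was expressed. These mice had been "cured" of autoimmunity by wild-type splenocytes given as neonates, so wild-type donor cells were present in the animals as well. The 5 thymic WT mice, also of 3-4 weeks of age, carried a different Foxp3 allele, the Foxp3/RFP reporter, and are not described as having received cells. The splenic CD25 KO group held 4 CD25 flox/Foxp3eGFP-Cre-ERT2/R26Y mice, in which tamoxifen started the deletion in mature Tregs, and the 4 splenic WT mice were reporter controls. Tamoxifen (70 mg/kg on 5 days) was given at 7-10 weeks of age, and splenic Tregs were taken 10-14 days later. Tissue, age, deletion model and sequencing run therefore cannot be told apart in any comparison of thymus with spleen. Within the thymus, loss of CD25 cannot be told apart from the Foxp3 allele and the transferred cells.

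DNA methylation is copied after replication by Dnmt1, which Uhrf1 brings to newly made DNA by binding hemimethylated sites, whereas Dnmt3a and Dnmt3b add methyl groups to unmethylated sites. The Tet enzymes oxidise methylcytosine and so begin its removal. PRC2 methylates lysine 27 of histone H3: Ezh2 is the catalytic subunit, and Eed and Suz12 are required for its activity. In Tregs, stable Foxp3 expression depends on demethylation of a conserved intronic region of Foxp3, and Ezh2 is known for its part in keeping activated Tregs stable.

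The genes lie on 9 mouse chromosomes (GRCm38): Dnmt1 at chr9:20907209-20959888 (ENSMUSG00000004099.16), Uhrf1 at chr17:56303321-56323486 (ENSMUSG00000001228.14), Dnmt3a at chr12:3806007-3914443 (ENSMUSG00000020661.15), Dnmt3b at chr2:153649450-153687730 (ENSMUSG00000027478.15), Tet1 at chr10:62804570-62908996 (ENSMUSG00000047146.16), Tet2 at chr3:133463679-133545139 (ENSMUSG00000040943.12), Tet3 at chr6:83362373-83459084 (ENSMUSG00000034832.15), Ezh2 at chr6:47530139-47595341 (ENSMUSG00000029687.16), Eed at chr7:89954654-89980983 (ENSMUSG00000030619.9) and Suz12 at chr11:79993106-80034123 (ENSMUSG00000017548.15). All are protein coding and were counted over their exons, which cover from 3828 bp in Eed to 16870 bp in Tet2. Exons of 5 of them overlap a gene on the other strand, over 0.255% of exonic length in Tet2 (Gm42567), 0.799% in Dnmt3a (Dnmt3aos), 2.61% in Ezh2 (Gm26625), 3.60% in Suz12 (Gm26563) and 6.82% in Eed (E230029C05Rik), and whether the counting used strand is not given in the sources used here. These partners were low: the highest share of a member's level in any mouse was 9.66%, for Gm26563 beside Suz12.

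Promoter windows of RefSeq (GRCm38.p6, 300 bases each, mostly before the start site, 15 windows for the 10 genes) were searched on both strands for the E2F-type octamers TTTCCCGC, TTTGGCGC, TTTCGCGC and TTTGCCGC. E2F sites are a known feature of genes transcribed with DNA replication. An octamer stood in 4 of the 15 windows, 1 each of Uhrf1, Dnmt1, Ezh2 and Suz12, and in 2.26% of all 32851 windows in the table. The 4 windows are printed below with each match in capitals, for Uhrf1 from chr17:56304063-56304362 (plus strand, the second of 2 start sites, match from -185, with the start site as 0), for Dnmt1 from chr9:20952574-20952873 (minus strand, the third of 3 start sites, matches from -219 and 33), for Ezh2 from chr6:47594981-47595280 (minus strand, match from 3) and for Suz12 from chr11:79992856-79993155 (plus strand, match from -219).
Uhrf1: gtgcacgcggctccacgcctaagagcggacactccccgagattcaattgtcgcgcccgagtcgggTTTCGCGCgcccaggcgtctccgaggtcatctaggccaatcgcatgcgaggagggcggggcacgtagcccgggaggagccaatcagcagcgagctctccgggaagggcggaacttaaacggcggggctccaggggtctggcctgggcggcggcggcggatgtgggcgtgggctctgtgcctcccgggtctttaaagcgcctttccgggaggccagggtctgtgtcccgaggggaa
Dnmt1: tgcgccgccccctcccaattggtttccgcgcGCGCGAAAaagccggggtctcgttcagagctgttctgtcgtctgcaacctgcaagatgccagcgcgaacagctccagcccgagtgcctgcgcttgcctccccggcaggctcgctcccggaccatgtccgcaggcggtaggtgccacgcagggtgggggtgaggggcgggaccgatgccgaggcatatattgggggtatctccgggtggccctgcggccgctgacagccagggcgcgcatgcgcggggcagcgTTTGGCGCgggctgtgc
Ezh2: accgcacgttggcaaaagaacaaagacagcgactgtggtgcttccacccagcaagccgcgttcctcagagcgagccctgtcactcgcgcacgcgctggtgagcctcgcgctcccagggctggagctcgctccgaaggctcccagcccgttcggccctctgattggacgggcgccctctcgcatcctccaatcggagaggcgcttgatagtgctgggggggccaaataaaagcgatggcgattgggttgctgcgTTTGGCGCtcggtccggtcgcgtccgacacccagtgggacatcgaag
Suz12: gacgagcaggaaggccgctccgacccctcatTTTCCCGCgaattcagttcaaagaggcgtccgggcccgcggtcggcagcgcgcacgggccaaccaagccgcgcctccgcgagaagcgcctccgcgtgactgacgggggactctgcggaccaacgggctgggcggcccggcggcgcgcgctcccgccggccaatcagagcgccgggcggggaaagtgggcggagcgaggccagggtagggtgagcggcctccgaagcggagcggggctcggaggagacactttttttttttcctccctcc
The windows of Dnmt3a, Dnmt3b, Tet1, Tet2, Tet3 and Eed held none of these octamers. The STAT core TTCNNNGAA, the kind of site read by STAT5 downstream of the IL-2 receptor, was in none of the 15 windows and in 8.30% of all windows, so no match overlapped an E2F octamer. A match is a description of letters in this window and not a bound site.

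Libraries held 17239774 to 23993674 counts in thymus and 25258341 to 32639570 in spleen. Il2ra, the targeted gene, stood at 664.0, 651.7, 524.5, 682.1 and 544.3 CPM (counts scaled to library size) in the thymic WT mice and at 104.9, 279.9, 96.1, 233.9 and 95.9 CPM in the thymic CD25 KO mice. Every CD25 KO mouse lay under every WT mouse, but CD25 KO mice 2 and 4 kept more of the transcript than the other 3. In spleen, Il2ra stood at 488.4 to 538.6 CPM in WT and at 167.7 to 208.2 CPM in CD25 KO mice. Only exon 4 of Il2ra is excised, so counts over the other exons do not by themselves show undeleted cells. All 8 Treg markers examined were above 3 counts in every group. Thymic CD25 KO mice 2 and 4 also stood apart in cell cycle genes. The mean log2 CPM of 24 S phase genes was 5.19 and 5.14 in them, 3.92 to 4.11 in the other 3 CD25 KO mice, and 4.88 to 5.26 in thymic WT mice. For 20 G2 and M phase genes the values were 5.30 and 5.10 in mice 2 and 4, 2.89 to 3.41 in the other 3, and 4.38 to 5.71 in WT. Results that rest on these mice are given below with and without them.

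All 10 genes were expressed in all 4 groups, at widely different levels per exonic length. In thymic WT Tregs the order, as CPM per kb of exon (mean ± SD, n = 5), ran from Tet3 (41.98 ± 1.69) through Dnmt1 (30.8 ± 3.88), Suz12 (27.9 ± 2.68), Dnmt3a (26.9 ± 0.989), Eed (17.6 ± 0.904), Uhrf1 (17.2 ± 2.68), Ezh2 (15.1 ± 1.49), Tet2 (9.95 ± 0.892) and Tet1 (4.35 ± 0.489) down to Dnmt3b (2.30 ± 0.245). The ranges over mice overlapped between Dnmt1 and Suz12, Suz12 and Dnmt3a, Eed and Uhrf1, and Uhrf1 and Ezh2, and the other neighbours did not overlap. In splenic WT Tregs (n = 4) Dnmt1 (23.8 ± 1.41), Tet3 (23.5 ± 1.29) and Suz12 (23.4 ± 0.163) led with overlapping ranges, followed by Eed (15.4 ± 0.298), Dnmt3a (12.6 ± 0.640), Tet2 (9.87 ± 0.283), Ezh2 (8.20 ± 0.405) and Uhrf1 (4.78 ± 0.477). Dnmt3b (2.01 ± 0.0940) and Tet1 (1.92 ± 0.0942) came last and overlapped each other. Among the methyltransferases Dnmt3b was thus the lowest in both tissues, at 10.3 ± 0.480 CPM in splenic WT and 11.7 ± 1.25 CPM in thymic WT mice. Uhrf1 differed between the WT groups, with 61.7 to 87.3 CPM in thymus against 18.7 to 23.3 CPM in spleen. Tet1 stood at 60.6 to 78.1 against 28.3 to 31.7 CPM, Dnmt3a at 434.0 to 471.2 against 193.4 to 216.7 CPM, and Tet3 at 683.0 to 749.6 against 361.8 to 407.8 CPM. Tet2 differed little, with 153.5 to 189.1 CPM in thymic and 160.2 to 170.7 CPM in splenic WT mice. These gaps between tissues were not tested, since the tissues differ in age, model and run.

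**Figure D1:**
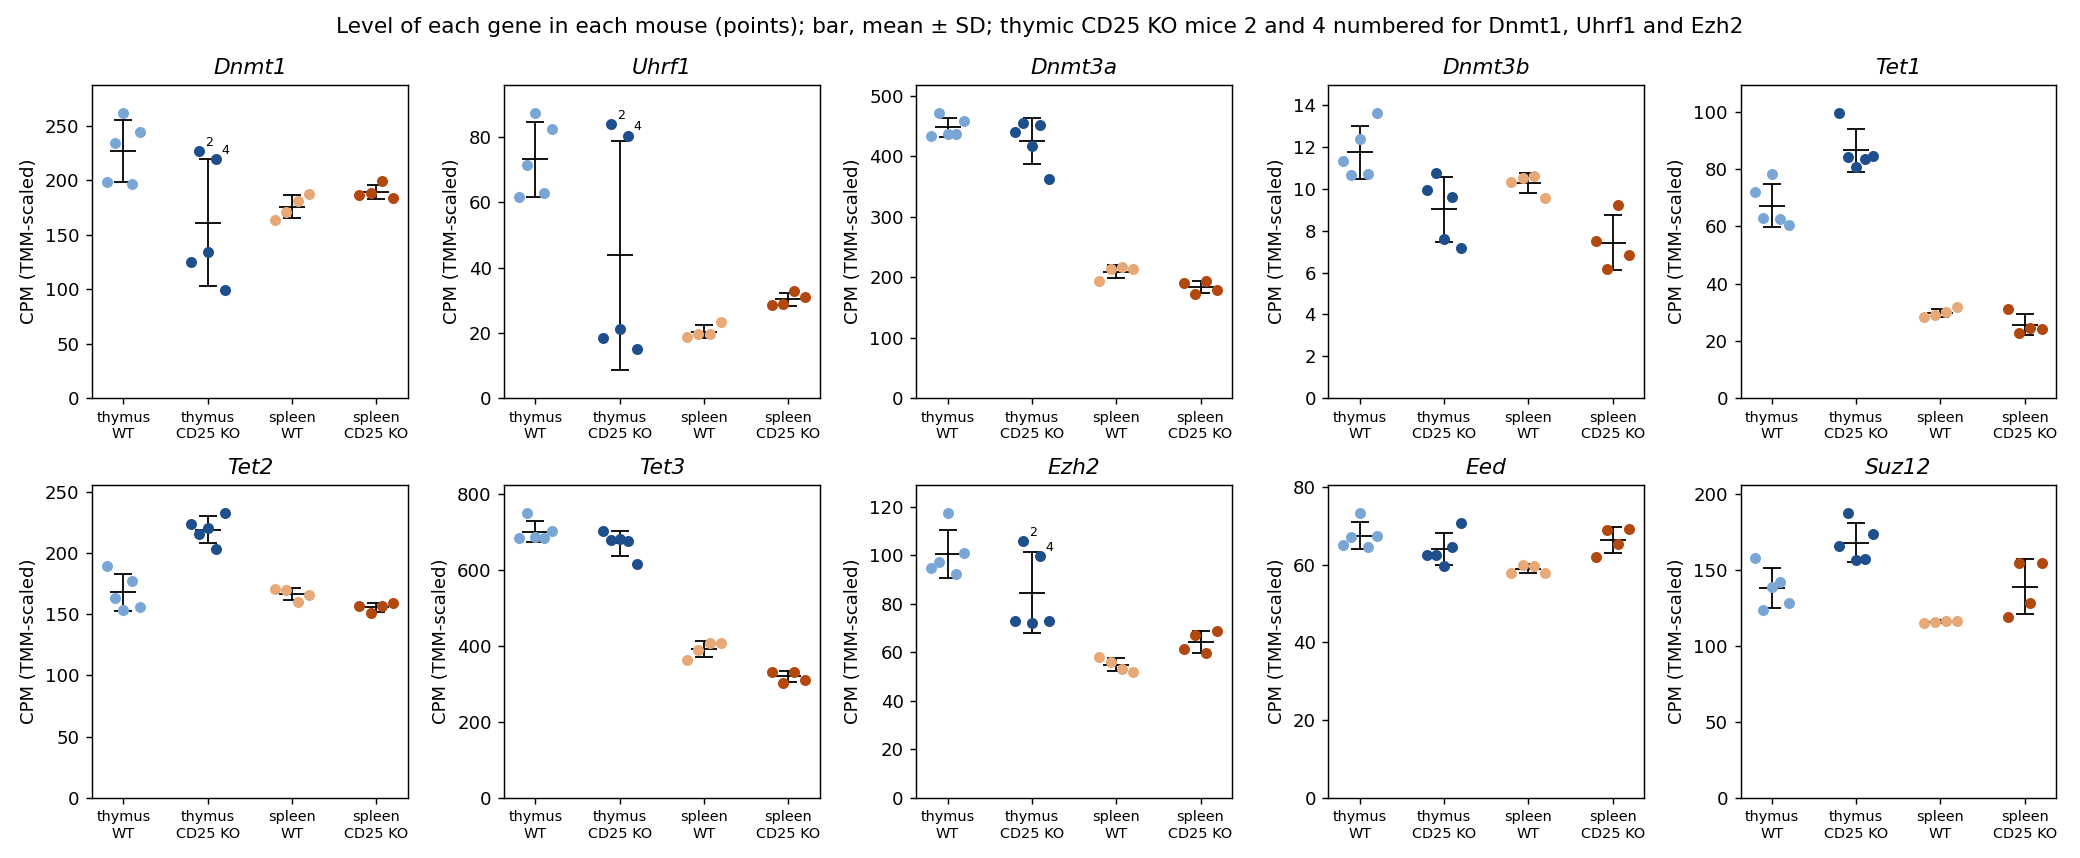
TMM-scaled CPM (linear axis from 0) of each of the 10 genes in each of the 18 mice, as points, with the group mean and SD as a bar. Tet1 and Tet2 are higher in all 5 thymic CD25 KO mice than in any thymic WT mouse, and thymic CD25 KO mice 2 and 4 (numbered for Dnmt1, Uhrf1 and Ezh2) lie apart from the other 3 CD25 KO mice.

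In thymic Tregs, Tet1 and Tet2 were the members that differed between CD25 KO and WT mice by edgeR, and both were higher in CD25 KO mice. DESeq2 called these and Suz12, also higher. Tet2 was 1.32-fold and Tet1 1.30-fold higher, while Tet3, the most abundant Tet transcript, was near its WT level. In the quasi-likelihood test of edgeR (p adjusted over all genes tested, threshold 0.01), 2 of the 10 genes passed, both higher, where 6.16% of the 16986 genes tested passed, 3.17% higher and 2.99% lower. No member passed as lower by edgeR or DESeq2, and 2 had an unadjusted p under 0.05 in that direction (Dnmt1 and Dnmt3b). The median log2 fold change of the 10 was -0.06, and that of all genes tested was -0.0022.

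Tet2, whose product oxidises methylcytosine and lacks the CXXC domain by which Tet1 and Tet3 bind CpG, stood at 189.1, 163.5, 153.5, 177.0 and 155.8 CPM in thymic WT mice. In thymic CD25 KO mice it stood at 223.9, 215.2, 220.7, 202.9 and 232.6 CPM. The groups did not overlap, as in 16.4% of all genes tested, and mice 2 and 4 lay with the other CD25 KO mice. The log2 fold change was 0.40 ± 0.0656 (SE; edgeR's quasi-likelihood test, adjusted p = 0.00275), and the call was kept when any 1 mouse was left out (adjusted p from 0.00223 to 0.00974). Tet1 stood at 72.0, 62.7, 78.1, 62.4 and 60.6 CPM in WT and at 99.4, 84.2, 80.7, 83.7 and 84.4 CPM in CD25 KO mice, again with no overlap, and 7.20% of all genes lay wholly higher in CD25 KO mice. Its log2 fold change was 0.38 ± 0.0816 (edgeR, adjusted p = 0.00892). That call lay close to the threshold: without 1 mouse it was lost in 9 of 10 cases, at adjusted p from 0.00708 to 0.0263, with the log2 fold change between 0.33 and 0.44. Tet3 stood at 683.0 to 749.6 CPM in WT and at 614.5 to 701.8 CPM in CD25 KO mice, with a log2 fold change of -0.05 ± 0.0506 (adjusted p = 0.524).

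Maintenance methylation genes split the thymic CD25 KO mice. Uhrf1, the reader of hemimethylated DNA, stood at 61.7, 71.5, 87.3, 62.9 and 82.3 CPM in WT mice and at 18.3, 84.0, 21.02, 80.4 and 14.97 CPM in CD25 KO mice. Mice 2 and 4 lay inside the WT range, and the other 3 lay at less than the lowest WT value, with a coefficient of variation of 80.5% over the 5 CD25 KO mice against 15.6% over the 5 WT mice. Dnmt1 showed the same division of mice, at 124.6, 226.7, 134.0, 219.4 and 99.4 CPM in CD25 KO against 198.3, 234.4, 261.4, 197.0 and 244.6 CPM in WT mice. Ezh2, the PRC2 methyltransferase, was at 73.0, 105.7, 71.8, 99.5 and 72.8 CPM in CD25 KO and at 92.2 to 117.3 CPM in WT mice. In all 3 genes mice 2 and 4 fell within the WT range and mice 1, 3 and 5 under it. With all 10 mice none of the 3 passed: the log2 fold change was -0.72 ± 0.442 for Uhrf1 (edgeR, adjusted p = 0.257), -0.48 ± 0.205 for Dnmt1 (adjusted p = 0.108) and -0.23 ± 0.121 for Ezh2 (adjusted p = 0.184).

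Without mice 2 and 4, an alternative added after the values were seen, 4 members passed instead of 2, and 2008 of all genes instead of 1047. Uhrf1 was then lower by -2.01 on the log2 scale (edgeR, adjusted p = 1.35e-05), Dnmt1 by -0.92 (adjusted p = 0.000408) and Ezh2 by -0.46 (adjusted p = 0.00270), Tet2 remained higher, and Tet1 (0.40) no longer passed (adjusted p = 0.0136). Leaving out mice that lie near WT widens these differences by construction, so the values describe the other 3 mice and are no independent test. In the plot against the S phase genes, which include none of the 10 members, Uhrf1 was lowest in the thymic mouse with the lowest S phase value and highest in the one with the highest. With all 10 mice no S phase or G2 and M phase gene passed in the thymus by edgeR or DESeq2, although 23 of 24 and 20 of 20 had a negative log2 fold change, with medians of -0.50 and -0.65, and 7 and 0 of them had an unadjusted p under 0.05 by edgeR. Without mice 2 and 4, 19 of 24 and 19 of 20 passed as lower. The part of cell cycle transcripts in the levels of Uhrf1, Dnmt1 and Ezh2 was not tested. In sorted cells measured in bulk, fewer cells of a kind and less RNA per cell cannot be told apart.

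**Figure D2:**
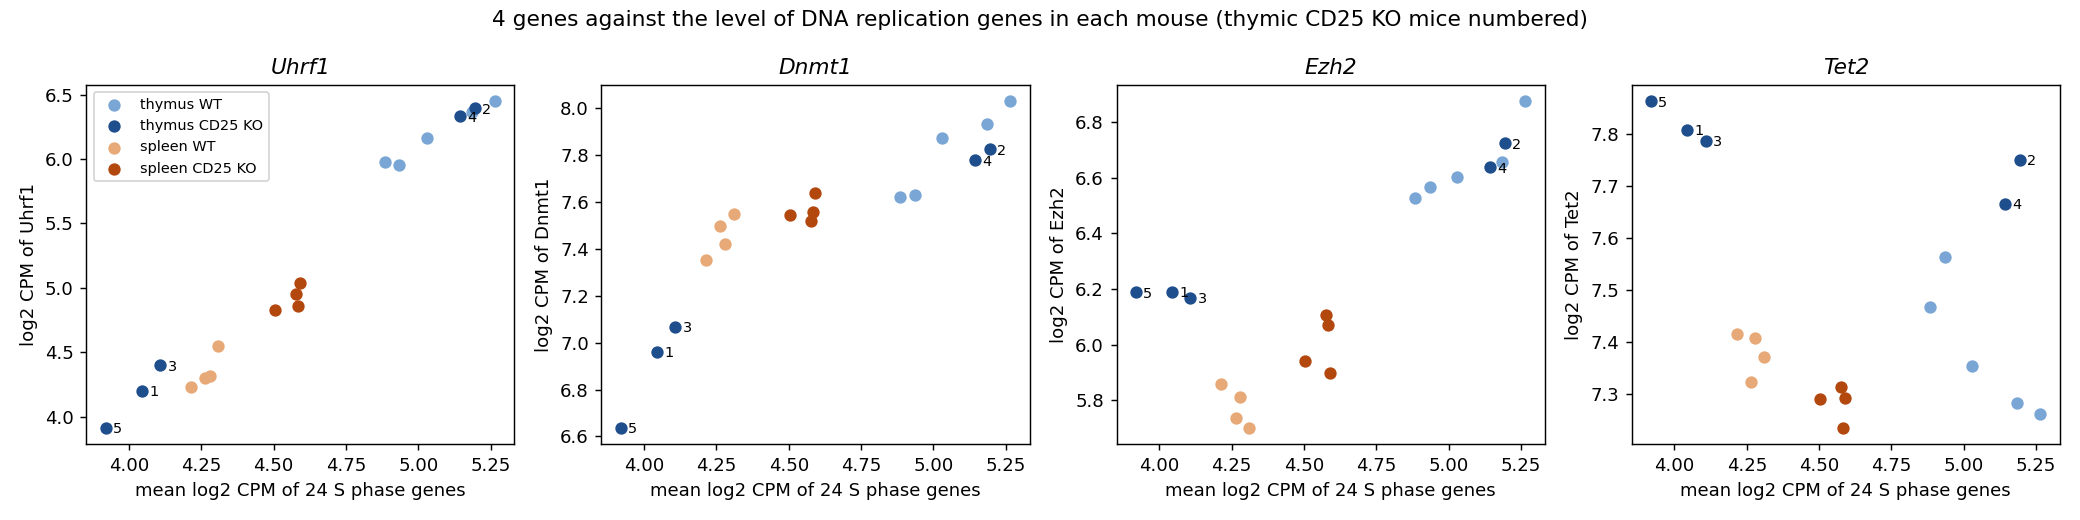
log2 CPM of Uhrf1, Dnmt1, Ezh2 and Tet2 in each of the 18 mice (vertical axes) against the mean log2 CPM of 24 S phase genes in the same mouse (horizontal axes); colours mark the 4 groups and numbers the thymic CD25 KO mice. Thymic CD25 KO mice 2 and 4 sit at 5.19 and 5.14 on the horizontal axis among the WT mice, and the other 3 at 3.92 to 4.11. For Tet2 all 5 thymic CD25 KO mice lie above the thymic WT mice.

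The remaining thymic members did not pass by edgeR. Dnmt3b, a de novo methyltransferase, stood at 11.3, 10.7, 12.4, 10.7 and 13.6 CPM in WT and at 9.95, 10.8, 7.63, 9.64 and 7.20 CPM in CD25 KO mice, with a log2 fold change of -0.36 ± 0.128 (edgeR, adjusted p = 0.0581). The groups overlapped through CD25 KO mouse 2 alone. Dnmt3a, the abundant de novo enzyme, stood at 363.3 to 455.1 CPM in CD25 KO mice, and its log2 fold change was -0.06 ± 0.0640 (adjusted p = 0.537). Suz12 stood at 157.7, 123.9, 138.5, 142.1 and 128.2 CPM in WT and at 165.6, 187.4, 156.3, 157.5 and 173.5 CPM in CD25 KO mice, where WT mouse 1 reached into the CD25 KO range. Its log2 fold change of 0.30 ± 0.0769 missed the threshold by edgeR (adjusted p = 0.0180), and passed it with DESeq2 (adjusted p = 0.00323), with upper-quartile scaling (adjusted p = 0.00973) and in the fit of all 18 mice (adjusted p = 0.00863). Eed, the subunit that binds trimethylated lysine 27, showed a log2 fold change of -0.06 ± 0.0600 (adjusted p = 0.494).

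In thymic Tregs the log2 fold changes of all genes followed the GC content of their transcripts, with a Spearman's rho of -0.41 across 16945 genes, which are not independent replicates. The transcripts of Tet1, Tet2, Suz12, Ezh2 and Eed hold 40.8% to 45.3% GC, and those of the Dnmt genes, Uhrf1 and Tet3 hold 53.2% to 55.8%. With a GC correction per library, Tet2 remained higher (log2 fold change 0.28, edgeR, adjusted p = 0.00488), and Tet1 did not pass (0.28, adjusted p = 0.0337). The value of Suz12 went from 0.30 to 0.02 (adjusted p = 0.810), and those of Dnmt3a and Tet3 turned positive at 0.05 and 0.08. In spleen the same correlation was -0.17 across 17423 genes. With the GC correction, Uhrf1 (0.60, edgeR, adjusted p = 9.17e-05) and Tet3 (-0.25, adjusted p = 0.00146) remained the splenic members that passed. The values shrank for Ezh2 (0.23 to 0.18), Eed (0.17 to 0.13) and Suz12 (0.26 to 0.19). They also shrank for Dnmt3a (-0.18 to -0.16), Dnmt3b (-0.47 to -0.44) and Tet3 (from -0.29). They grew in size for Uhrf1 (from 0.57), Dnmt1 (0.11 to 0.14), Tet1 (-0.22 to -0.26) and Tet2 (-0.095 to -0.14).

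**Figure D3:**
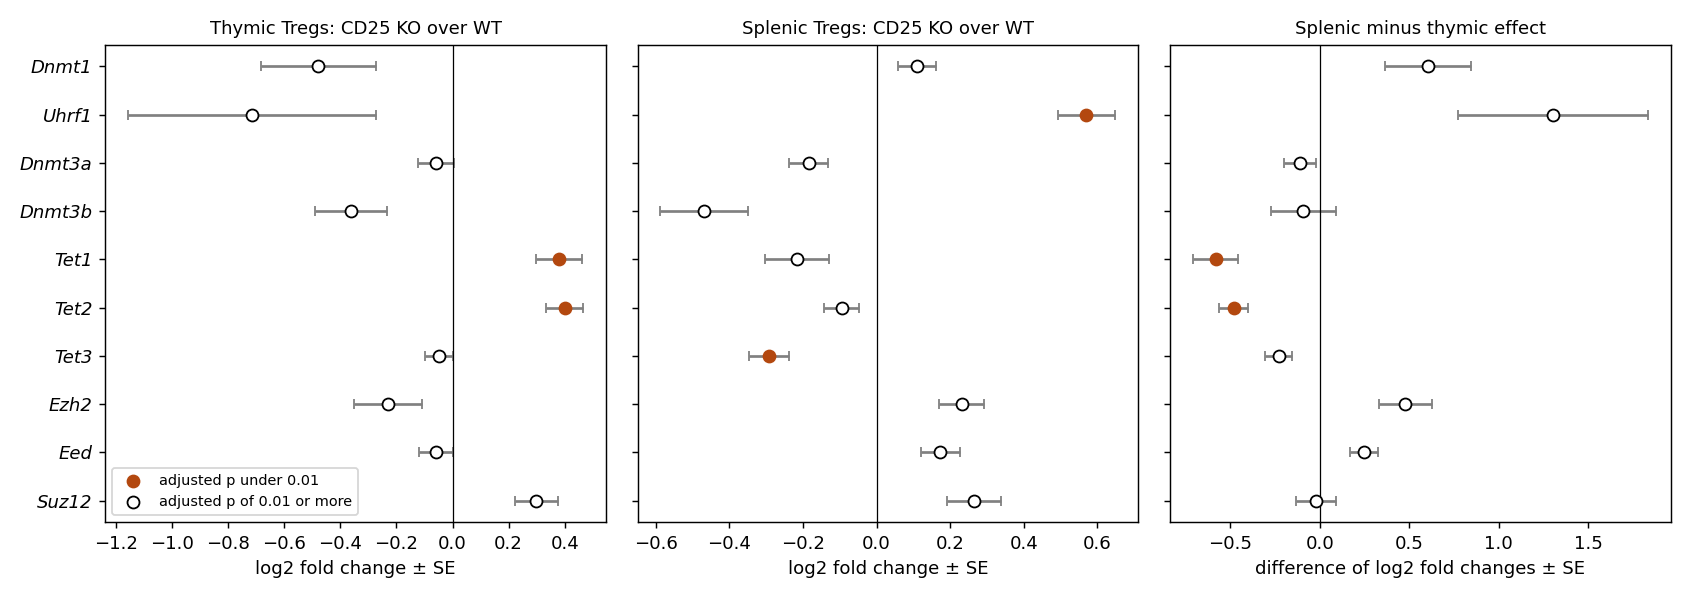
log2 fold change of CD25 KO over WT with its SE for each of the 10 genes in thymic Tregs (left) and splenic Tregs (middle), and the splenic minus the thymic value (right); filled points have an adjusted p under 0.01 by edgeR and the horizontal scales differ. Tet1 and Tet2 pass in the thymus and in the difference, and Uhrf1 and Tet3 pass in the spleen.

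In splenic Tregs, Uhrf1 was 1.49-fold higher and Tet3 1.22-fold lower in CD25 KO mice, and the 3 PRC2 members lay above WT in every CD25 KO mouse without passing the threshold of 0.01 by edgeR. By edgeR, 1 of the 10 genes passed as higher and 1 as lower, where 9.45% of 17463 genes tested passed, 5.90% higher and 3.55% lower. On TMM-scaled CPM the groups did not overlap for 8 of the 10 genes, where 20.4% of all genes tested did not overlap. Of these, 4 were higher (Uhrf1, Ezh2, Eed, Suz12), beside 11.2% of all genes, and 4 lower (Dnmt3a, Dnmt3b, Tet2, Tet3), beside 9.19%. With RLE scaling instead, the groups overlapped for Dnmt3a (WT mouse 1 at 191.2, CD25 KO mouse 3 at 193.8 CPM). They also overlapped for Tet2 (WT mouse 3 at 158.7, CD25 KO mouse 4 at 159.6 CPM). At an adjusted p under 0.05, 7 of 10 passed (4 higher and 3 lower), where 17.2% of all genes did, 10.2% higher and 7.03% lower. The median log2 fold change of the 10 was 0.01 beside -0.01 for all genes.

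Uhrf1 stood at 18.7, 19.8, 19.6 and 23.3 CPM in splenic WT mice and at 28.4, 28.9, 32.8 and 30.8 CPM in CD25 KO mice. Its log2 fold change was 0.57 ± 0.0786 (edgeR, adjusted p = 0.000116). The call was kept without any 1 of the 8 mice, at log2 fold changes from 0.53 to 0.64, but not in a fit of all 18 mice together, where the spread of the thymic CD25 KO mice enters its error (0.57 ± 0.400, adjusted p = 0.432). Dnmt1, its partner in maintenance, stood at 163.6, 171.1, 180.7 and 187.2 CPM in WT and at 186.7, 188.4, 198.9 and 183.5 CPM in CD25 KO mice. The groups overlapped, and the log2 fold change was 0.11 ± 0.0523 (adjusted p = 0.173). The cell cycle lists were higher in the same mice: the mean log2 CPM of the S phase genes was 4.22 to 4.31 in WT and 4.50 to 4.59 in CD25 KO mice, with 8 of 24 genes passing as higher, among them Rrm2 (log2 fold change 1.00) and Mcm6 (0.50). For the G2 and M phase genes it was 2.08 to 2.37 in WT and 2.76 to 3.17 in CD25 KO mice, with 15 of 19 tested genes passing as higher, among them Hmmr (1.27) and Ccnb2 (1.20). Their part in the higher Uhrf1 level was not tested.

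Tet3 stood at 361.8, 389.9, 407.8 and 406.7 CPM in splenic WT and at 332.2, 303.4, 331.1 and 311.1 CPM in CD25 KO mice, with no overlap. It fell by 0.29 ± 0.0537 on the log2 scale (edgeR, adjusted p = 0.00132), and the call was kept without any 1 mouse. Tet2 stood at 170.7, 169.7, 160.2 and 165.5 CPM in WT and at 156.5, 150.7, 156.8 and 159.1 CPM in CD25 KO mice. The ranges did not overlap by a narrow margin, which was lost with RLE scaling. The log2 fold change of -0.095 ± 0.0464 did not pass (edgeR, adjusted p = 0.185). Tet1 stood at 28.3, 29.1, 29.9 and 31.7 CPM in WT and at 30.9, 22.8, 24.4 and 24.1 CPM in CD25 KO mice. CD25 KO mouse 1 lay inside the WT range and the other 3 under it, and the log2 fold change was -0.22 ± 0.0870 (adjusted p = 0.104).

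On TMM-scaled CPM the de novo enzymes lay under WT in all splenic CD25 KO mice without passing by edgeR. Dnmt3b stood at 10.3, 10.6, 10.6 and 9.58 CPM in WT and at 7.496, 6.17, 9.22 and 6.84 CPM in CD25 KO mice, a log2 fold change of -0.47 ± 0.119 (edgeR, adjusted p = 0.0125) on 171 to 288 counts per library. It passed with DESeq2 (adjusted p = 0.00229) and in edgeR with no filter on low counts (adjusted p = 0.00233). Dnmt3a stood at 193.4, 212.8, 216.7 and 213.9 CPM in WT and at 191.1, 172.4, 193.2 and 179.0 CPM in CD25 KO mice, a log2 fold change of -0.18 ± 0.0540 (adjusted p = 0.0270). WT mouse 1 and CD25 KO mouse 3 differed by less than 1 CPM there, so the groups were barely separate, and with RLE scaling they overlapped.

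Among the PRC2 genes, Ezh2 stood at 57.9, 56.1, 53.3 and 51.9 CPM in splenic WT and at 61.4, 67.2, 59.5 and 68.9 CPM in CD25 KO mice. Its log2 fold change was 0.23 ± 0.0613 (edgeR, adjusted p = 0.0154), and it passed with DESeq2 (adjusted p = 0.00656) and with no filter on low counts (adjusted p = 0.00844). Suz12 stood at 114.8, 115.8, 116.7 and 116.3 CPM in WT and at 118.9, 154.6, 128.3 and 154.3 CPM in CD25 KO mice. CD25 KO mice 2 and 4 were the high ones in Suz12, with a coefficient of variation of 13.1% in CD25 KO against 0.695% in WT mice, and the log2 fold change was 0.26 ± 0.0741 (adjusted p = 0.0215), and it passed with no filter on low counts (adjusted p = 0.00101) and without CD25 KO mouse 1 (adjusted p = 0.00240). Eed stood at 57.9 to 60.1 CPM in WT and at 61.9 to 69.3 CPM in CD25 KO mice, with a log2 fold change of 0.17 ± 0.0529 (adjusted p = 0.0332).

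The log2 fold changes of Tet1 and Tet2 differed between the 2 tissues. The splenic minus the thymic log2 fold change was -0.58 ± 0.128 for Tet1 (edgeR's test of the interaction in all 18 mice, adjusted p = 0.00420) and -0.48 ± 0.0815 for Tet2 (adjusted p = 0.000532). These 2 of 10 genes passed, both with a negative difference, where 6.98% of 18686 genes passed, 4.50% with a positive and 2.49% with a negative difference. Tet2 kept the call without any 1 of the 18 mice, and Tet1 lost it in 3 of 18 cases (adjusted p up to 0.0123) and with the GC correction (-0.52, adjusted p = 0.0112). For Uhrf1 the difference was 1.30 ± 0.530 (adjusted p = 0.0947), for Dnmt1 0.61 ± 0.243 (adjusted p = 0.0906) and for Ezh2 0.48 ± 0.149 (adjusted p = 0.0326), none past the threshold. Without thymic CD25 KO mice 2 and 4 these 3 passed, at 2.58, 1.04 and 0.70. Those mice were left out after their values in these genes were seen, which widens the differences by construction and is no independent test. For Tet3 (-0.23 ± 0.0763, adjusted p = 0.0435) and Eed (0.25 ± 0.0785, adjusted p = 0.0352) the difference did not pass, and for Dnmt3a (-0.11), Dnmt3b (-0.09) and Suz12 (-0.02) the adjusted p was 0.401, 0.763 and 0.923. Since tissue, age, model and run change together, these differences cannot be assigned to the tissue.

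**Figure D4:**
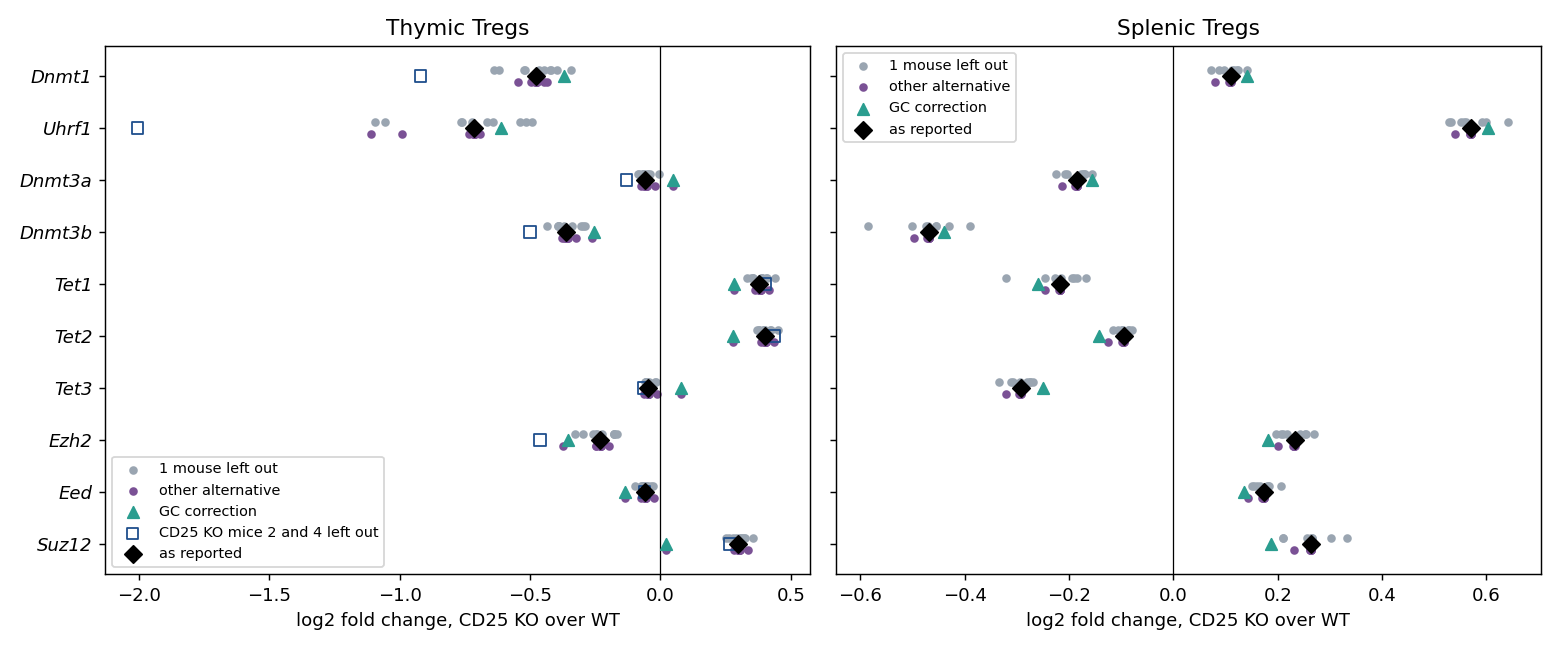
log2 fold change of CD25 KO over WT for each gene in thymic (left) and splenic (right) Tregs as reported (diamond), without 1 mouse, with the GC correction, without thymic CD25 KO mice 2 and 4, and under the other alternatives; the horizontal scales differ. Uhrf1, Dnmt1 and Ezh2 in the thymus move most when mice 2 and 4 are left out, Suz12 moves to 0.02 with the GC correction, and Tet2 stays at 0.28 or above.

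Patterns over the 18 mice were compared by the root mean square difference of log2 CPM, each gene centred on its tissue mean. Dnmt3a and Tet3 were each other's nearest member, at 0.0540, and each ranked 5 among 16213 other genes by nearness to the other. Tet1 and Tet2 were each other's nearest member at 0.147, as were Ezh2 and Eed at 0.166, while Uhrf1 was nearest to Dnmt1 (0.425), Dnmt1 to Ezh2 (0.203), Dnmt3b to Dnmt3a (0.200) and Suz12 to Tet2 (0.164). Many other genes were nearer: Tet2 ranked 59 for Tet1 and Tet1 ranked 1164 for Tet2, and Eed ranked 985 for Ezh2 and Ezh2 ranked 4920 for Eed. The centred values of Eed had a root mean square of only 0.0904, less than the distance of Eed from Ezh2. Genes that vary little lie close to one another on this measure. The centred values of Uhrf1 spanned 2.54 and those of Dnmt1 1.39 log2 units, and among all genes those near to Uhrf1 included Racgap1 (0.140), which acts in cell division, and Clspn (0.152), a replication checkpoint protein. Nearest to Dnmt1 were Wdr76 (0.0923), Tfdp1 (0.0972), a partner of E2F factors, and Mthfd2 (0.101), an enzyme of mitochondrial folate metabolism.

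The other genes of these pathways numbered 61 in 6 lists, of which 59 were tested and 2 (Dnmt3l and Cxxc4) had too few counts. By edgeR, 4 passed as higher and 1 as lower in thymus, beside 6.16% of all genes, and 5 passed in spleen, all as higher, beside 9.45% of all genes. By DESeq2 the counts were 7 higher and 4 lower in thymus, where 2763 of all genes passed, and 8 higher and 1 lower in spleen, where 2146 did. Without thymic CD25 KO mice 2 and 4, 2 passed as higher and 7 as lower in thymus, so the thymic counts rest on those mice. Of 9 tested DNA methylation partners, Trdmt1, a tRNA methyltransferase of the Dnmt family, was higher in thymus (log2 fold change 0.51, edgeR, adjusted p = 0.00811) and Hells, a chromatin remodeller needed for DNA methylation, in spleen (0.48, adjusted p = 0.00243). Of 15 tested Tet partners and demethylation genes, Neil1, a DNA glycosylase, was higher in thymus (0.45, adjusted p = 0.00781) and Gadd45b, a stress-induced protein tied to DNA demethylation, in spleen (0.43, adjusted p = 6.56e-05). Of 9 other PRC2 subunits, Mtf2 was higher in thymus (0.39, adjusted p = 0.00879) and Aebp2 in spleen (0.28, adjusted p = 0.000650), and both are accessory subunits. Of 16 PRC1 subunits, which bind or act beside the PRC2 mark, Pcgf3 was higher (0.25) and Cbx2 lower (-0.28) in thymus, and Bmi1 (0.32) and Cbx6 (0.26) were higher in spleen. None of 8 methyl-CpG readers passed by edgeR, with 6 in thymus and 3 in spleen at an unadjusted p under 0.05, and by DESeq2 1 passed as higher and 1 as lower in thymus. Of 2 lysine 27 demethylases none passed by edgeR or DESeq2, with 0 in thymus and 1 in spleen at an unadjusted p under 0.05.

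Of 6 Treg genes known for demethylated regulatory regions, 3 passed as lower in thymus by edgeR, beside 2.99% of all genes. In spleen 3 passed as lower and 1 as higher, beside 3.55% and 5.90% of all genes. The log2 fold change was positive for 1 of the 6 in thymus (Ikzf2, 0.44, which did not pass) and for 3 in spleen. The list includes Il2ra, the deleted gene (log2 fold change -1.90 in thymus and -1.49 in spleen). Foxp3 stood at 503.0 ± 69.6 CPM in thymic WT and 297.3 ± 26.5 CPM in thymic CD25 KO mice (SD, n = 5), a log2 fold change of -0.74 (edgeR, adjusted p = 0.00101), and at 330.2 ± 10.4 and 226.1 ± 15.8 CPM in splenic mice (n = 4), -0.55 (adjusted p = 6.90e-06). Ikzf2, which encodes Helios, was higher in splenic CD25 KO mice (0.37, adjusted p = 0.000859). No DNA methylation was measured in these mice.

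The summed levels of 3 lists of markers of other cells did not overlap between the splenic groups. The summed level of 8 B cell markers was 30.0 to 36.6 CPM in WT and 39.1 to 49.4 CPM in CD25 KO mice, with 2 of 5 tested genes passing as higher (Pax5 and Cd22, log2 fold changes of 1.04 and 0.94). Cd22 alone went from a mean of 11.7 CPM in WT to 22.5 CPM in CD25 KO mice. The log2 fold change was positive for 4 of the 5 and negative for Cd79a (-0.45, edgeR, adjusted p = 0.0320), while Cd79b was near its WT level (0.02). For 8 myeloid markers it was 45.5 to 48.6 CPM in WT and 54.2 to 58.9 CPM in CD25 KO mice, with 1 of 7 passing as higher (Lyz2, 1.03), while 4 of the 7 had a negative log2 fold change and the median was -0.23. For 10 double-positive thymocyte markers it was 136.0 to 138.3 CPM in WT and 150.2 to 181.1 CPM in CD25 KO mice, with 1 of 6 higher (Themis, 0.34) and Rag1, Rag2 and Ptcra at or under 3 counts in every splenic mouse. Of the 8 Treg markers, 3 passed as higher (among them Ikzf2 and Cd4) and 3 as lower in spleen, and 4 as lower in thymus. In thymus none of the markers of double-positive thymocytes (214.2 to 381.0 CPM in WT, 270.6 to 417.5 in CD25 KO), B cells (12.4 to 14.9 and 10.6 to 15.2), myeloid cells (34.9 to 63.4 and 30.3 to 46.2), erythroid cells (13.8 to 35.1 and 8.46 to 44.6) or thymic epithelium (6.95 to 9.99 and 6.08 to 13.2) passed by edgeR, with 3, 0, 1, 1 and 0 of them at an unadjusted p under 0.05, and by DESeq2 only 2 double-positive thymocyte markers passed, as higher. Erythroid (5.35 to 7.25 and 4.98 to 7.10) and epithelial markers (7.14 to 10.6 and 8.96 to 13.1) did not pass in spleen by either tool, with 0 and 1 at an unadjusted p under 0.05. The part of these cells in the splenic differences of Uhrf1 and Tet3 was not tested.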

How the data were processed

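RNA-seq libraries from 25 ng of total RNA (ribosomal RNA depleted, 75 bp reads) of sorted Tregs had been aligned to mm10/GRCm38 with STAR 2.5.0b and counted over the exons of GENCODE M13 genes with featureCounts 1.5.0, according to the study's methods and the submitters' processing notes. The deposited values are raw counts per gene and mouse that the authors had not normalized, for 18 mice in 1 table, and the authors sequenced thymus and spleen separately. Gene symbols, exonic lengths and GC content came from GENCODE M21 (GRCm38), which gave 50376 of 50600 identifiers a symbol.

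CD25 KO was compared with WT per tissue with edgeR 4.0.16 (R 4.3.3; TMM scaling, filterByExpr with its minimum count of 10, glmQLFit and glmQLFTest), with Benjamini-Hochberg adjustment over all genes tested and a threshold of 0.01, and the splenic minus the thymic effect was tested as an interaction in 1 fit of all 18 mice. Levels are TMM-scaled CPM, and log2 CPM uses a prior count of 2. The study names DESeq2, which (version 1.42.0) served as an alternative, beside RLE and upper-quartile scaling, other filters, a threshold of 0.05, a GC correction (lowess offset per library, span 0.3), 1 fit of all mice, a replicate block and leaving out mice. On simulated counts with 200 changed genes, edgeR recovered 83% of 2-fold and 96% of 4-fold changes in the thymic design (17038 genes), 69% and 96% in the splenic (17383 genes) and 65% and 93% for the difference (18352 genes). The simulated spread of each gene was estimated once from all 18 mice, whereas the tests within a tissue used the spread in that tissue. The thymic and splenic shares may therefore differ from the recovery of those tests. Smaller changes, such as the 1.22- to 1.49-fold ones of the members that passed within a tissue, were not simulated. Nor was a group that splits as the thymic CD25 KO mice do, so recovery in these cases is not known. A gene at the limit of 3 counts in a library corresponds to at most 0.163 CPM, a limit that covers counting error only. The labels do not say more than that each sample is a mouse, so p-values measure the spread between these mice.

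The 10 members and all gene lists were chosen with earlier results of these data known. All 10 members were named, with Il2ra as the check of genotype. Of each other list, up to 2 genes per direction and tissue that passed, by fold change, were named, and 3 genes of nearest pattern for members whose centred values spanned over 1 log2 unit; some items the rule would name are not reported here. Alternatives without thymic CD25 KO mice 2 and 4 were added after the values were seen.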

Additional observations from a re-analysis of the deposited data

Results flagged for a closer look

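The log2 fold changes of CD25 KO over WT for Tet1 and Tet2 differed between the tissues. The splenic minus thymic value was -0.583 for Tet1 and -0.481 for Tet2, both past the threshold of edgeR's test of the interaction (adjusted p = 0.00420 and 0.000532). Tet2 was higher in 5 of 5 thymic CD25 KO mice than in any thymic WT mouse, as were 7.20% of all genes. In spleen Tet2 was lower on TMM-scaled CPM in 4 of 4 CD25 KO mice than in any WT mouse, as were 9.19% of all genes. The margin was narrow, with CD25 KO mouse 4 at 159.1 and WT mouse 3 at 160.2 CPM. With RLE scaling these mice overlapped, at 159.6 and 158.7 CPM. The splenic log2 fold change of -0.095 did not pass (edgeR, adjusted p = 0.185).

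In 3 of 40 groups of 4 or 5 mice, 1 mouse lay far from the rest by Dixon's criterion, which chance meets in about 1 of 20 groups. Dnmt3a stood at 193.4 CPM in splenic WT mouse 1, where the nearest WT mouse had 212.8 CPM. Tet1 stood at 99.4 CPM in thymic CD25 KO mouse 1, where the nearest had 84.4 CPM. Tet3 stood at 749.6 CPM in thymic WT mouse 2, where the nearest had 701.3 CPM. Without thymic CD25 KO mouse 1 the log2 fold change of Tet1 was 0.33 and no longer passed (edgeR, adjusted p = 0.0221). The split of thymic CD25 KO mice 2 and 4 from the other 3 in Uhrf1, Dnmt1 and Ezh2 does not meet that criterion, which looks at 1 mouse at a time.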

How the results depend on the processing

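Of the 10 genes, 2 passed in thymus, 2 in spleen and 2 for the difference between tissues, where 1047, 1651 and 1305 of all genes did. In thymus 1 passed with the GC correction (Tet2), 4 without CD25 KO mice 2 and 4, and 1 to 2 when each mouse was left out in turn. Of all genes, 785, 2008 and 371 to 1087 passed there, in the same order. In spleen 4 passed with DESeq2, 5 with no filter on low counts, 7 at a threshold of 0.05, 1 in the fit of all 18 mice (Tet3), and 2 to 4 without each mouse. The counts over all genes were 2146, 2356, 3001, 795 and 1099 to 1723, in the same order. For the difference 5 passed at a threshold of 0.05, 5 without thymic CD25 KO mice 2 and 4, and 1 to 3 without each mouse, beside 3149, 2307 and 817 to 1489 of all genes. Apart from the replicate block, the other alternatives moved these counts by at most 1 gene.

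Of the thymic genes, Dnmt3a and Tet3 turned positive with the GC correction (0.0502 and 0.0777) and with that correction and the replicate block together (0.0477 and 0.0777). The difference for Suz12 turned positive with the GC correction (0.172) and without thymic CD25 KO mice 2 and 4 (0.0035), and ranged from -0.0845 to 0.0402 without each mouse, and that for Dnmt3b turned positive without mice 2 and 4 (0.0382). None of these passed in either form.

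With the replicate block of thymic mouse numbers, 0 members passed by edgeR (6 at an unadjusted p under 0.05), and 209 of all genes passed where 1047 had, 158 lower and 51 higher. Tet1 was at 0.38 (adjusted p = 0.0225) and Tet2 at 0.40 (adjusted p = 0.0161). With the GC correction added, 0 members (3 at an unadjusted p under 0.05) and 231 genes passed. Deviations from the group means correlated at 0.144, 0.034, -0.0675, -0.238 and -0.048 between thymic mice of the same number, so the numbers were not taken to pair the mice, only 1 of 5 correlated best with itself, and the cause of the lower counts was not tested. The splenic labels share no numbers.

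Over all genes, thymic calls numbered 1047 (508 lower, 539 higher), 2763 with DESeq2, 3951 at 0.05, 2881 in the fit of all mice, 2008 without mice 2 and 4, and 371 to 1087 without each mouse. Splenic calls numbered 1651, 2146 with DESeq2, 2356 with no filter on low counts, 3001 at 0.05, 795 in the fit of all mice, and 1099 to 1723 without each mouse. Calls of the difference numbered 1305 (465 lower, 840 higher), 2188 with DESeq2, 3149 at 0.05, 2307 without mice 2 and 4, and 817 to 1489 without each mouse. Upper-quartile scaling changed the thymic split to 440 lower and 808 higher and that of the difference to 669 lower and 616 higher. RLE scaling moved the mean of Suz12 in splenic WT mice from 115.9 to 114.8 CPM, and made the splenic groups of Dnmt3a and Tet2 overlap. The nearness of patterns was computed 1 way only. Dnmt3b rested on the fewest counts, 137 to 319 per library.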
